A study of Danio rerio with 12 samples.

Results

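Tritiated water is water in which part of the hydrogen is the radioactive isotope tritium. The comparison described here is that of zebrafish larvae (Danio rerio, AB strain) exposed to tritiated water at 0.4 mGy/h with control larvae, both sampled at 7 days post fertilization (dpf). The libraries were chosen by their labels, 3 exposed and 3 control libraries of entire larvae, which are 6 of the 12 libraries of the study. The other 6 are exposed and control larvae at 10 dpf, under the same dose rate. Per the labels, the exposed larvae were raised in a glove box with an incubator of its own, and the controls in another incubator of that room. Exposure and incubator therefore cannot be told apart. The question of the comparison is which messenger RNAs differed between exposed and control larvae at 7 dpf, within a study of how tritium acts on early life stages.

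Tritium decays by emitting beta particles of low energy that travel a very short way in tissue, so tritiated water irradiates an animal from inside wherever water goes. Ionizing radiation can break DNA and produce reactive oxygen species, and cells answer such damage with checkpoint and repair genes. At this age a zebrafish larva has working eyes, muscle, gut and innate immunity, while its adaptive immunity is immature and its skin ionocytes take up calcium and other ions from the water. Entire larvae mix all of these tissues, and in such bulk samples fewer cells of a type and less RNA per cell cannot be told apart.

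In the order of replicates 1 to 3, the controls had 67.3 M, 31.1 M and 35.8 M reads on genes (M, 1e6) and the exposed larvae 52.3 M, 60.0 M and 19.4 M. Values are counts per 1e6 of these reads (CPM), with library sizes scaled by TMM,, and a fold change is exposed against control on the log2 scale with its standard error (SE). A gene was called when its p from edgeR's quasi-likelihood test, adjusted by the Benjamini-Hochberg method over all 23075 genes tested, was under 0.05. Control replicate 3 stood apart from the other controls. On the leading principal component of the 6 libraries, with 42.8% of the variance, it lay at 2.93, between the other controls at -43.9 and -31.3 and the exposed libraries at 13.1 to 33.4. It was thus nearer to the nearest exposed library than to either other control. Its Pearson correlation across genes was 0.9898, 0.9892 and 0.9864 with exposed replicates 1, 2 and 3. With control replicates 1 and 2 it was 0.9841 and 0.9882. Control replicate 3 was therefore closer to exposed replicates 1 and 2 than to the other controls. In 69 of the 78 genes that fell it was the lowest control (88.5%, against 38.1% of all genes tested). The labels call the 3 libraries of a group biological replicates and say no more of their origin.

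Of the 23075 genes, 119 were called (0.516%), of which 41 were higher (0.178%) and 78 lower (0.338%) in exposed larvae. At an unadjusted p under 0.05 the counts were 1065 higher and 1679 lower. Of all fold changes 10936 were above 0 and 12139 below 0. The falls were the larger changes: 48 falls (0.208% of all genes) and 6 rises (0.026%) exceeded 2-fold, 54 in all (0.234%). The median of the 78 falls was -1.25 and that of the 41 rises 0.68, while the median over all genes tested was -0.01. In all 119 called genes the 3 exposed libraries lay wholly above or wholly below the 3 controls, which held for 3865 of all genes tested (16.7%), 1880 above (8.15%) and 1985 below (8.6%). The count changed whichever library was left out, and each of these fits also had fewer libraries in a group. Leaving out exposed replicate 1 gave 22 calls (0.0951%; 0.0562% higher, 0.0389% lower), exposed replicate 2 gave 35 (0.151%; 0.0389% and 0.112%) and exposed replicate 3 gave 35 (0.149%; 0.0554% and 0.0938%). Leaving out control replicate 1 gave 12 (0.0519%; 0.013% and 0.0389%), control replicate 2 gave 18 (0.0767%; 0.0256% and 0.0511%) and control replicate 3 gave 831 (3.54%; 0.775% and 2.76%). All 119 were called without control replicate 3, and 72 of them were called in no other fit that left out a library. Those 72 include il23r, MARVELD2, fgf7, mgll, OXGR1, guca1aa, atp2b1b, SLC12A7, itga6b, mef2ab, c1galt1a, STAP2 and si:ch211-197l9.2, named outside the rule given below. Among the 49 called genes named by rule, 24 are of that kind: il17ra1a, TYK2, IL10, JUN, EHF, MPEG1, cldnf, cldn30, cldn8.2, sult5a1, CYP26B1, UNC93A, arid6, FHL2, six7, slc24a2, PDC, slc1a8b, FABP7, col7a1, cyp11c1 and 3 of the KCNJ1 genes (ENSDARG00000090635, ENSDARG00000090866 and ENSDARG00000089060). Against a null fold of 1.5 (glmTreat) 0 genes were called, while DESeq2 called 591 (2.56%; 0.897% higher, 1.66% lower) and voom 447 (1.94%; 0.741% and 1.2%).

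**Figure D1:**
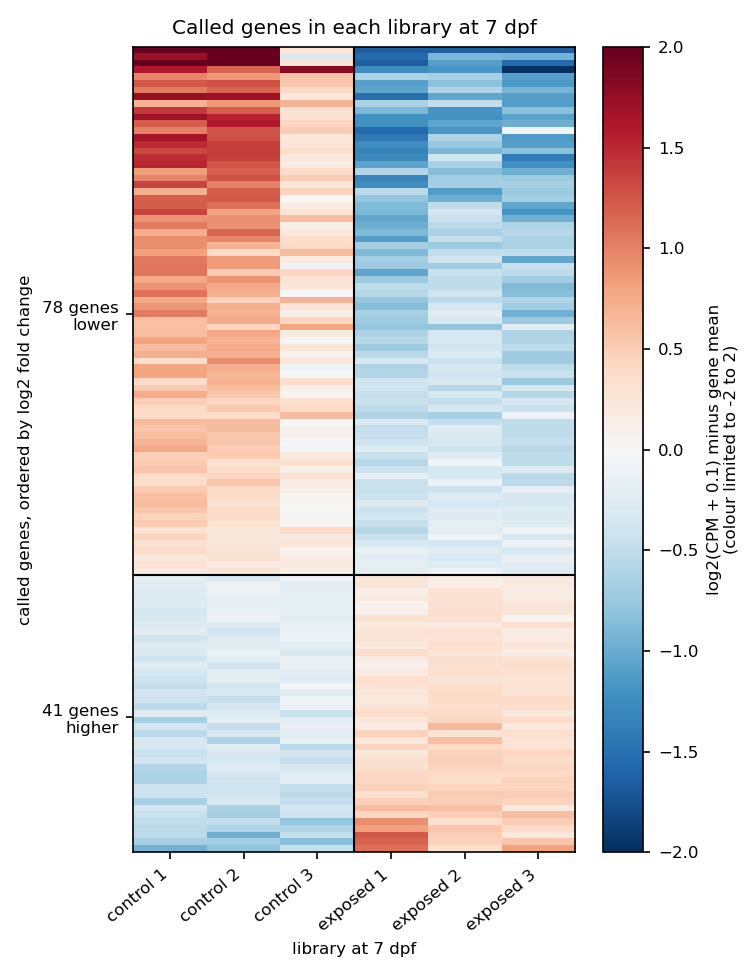
Each row is 1 of the 119 called genes, ordered by log2 fold change, and each column 1 of the 6 libraries at 7 dpf; colour gives log2(CPM + 0.1) minus the mean of the gene over the 6 libraries, limited to -2 to 2. In most of the 78 genes that fell, control replicate 3 is the palest of the controls, and the 41 rises have a smaller median size (0.68) than the falls (-1.25).

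Cytokine, receptor and kinase genes of the interleukin 23, interleukin 17 and STAT3 pathways fell in exposed larvae. Of 40 genes tested in this list 7 fell (17.5%, where 0.338% of all genes fell) and 0 rose, with 35 of the 40 fold changes below 0 and a median of -0.45. This list and all those below were chosen with earlier results of these data known, so their shares are descriptions and no test. Interleukin 23, made by myeloid cells, acts through a receptor that signals by TYK2 and STAT3, and in mammals this drives lymphocytes to secrete interleukin 17 at skin and mucosal surfaces. The ligand il17a/f1 (ENSDARG00000043933) had 88, 52 and 10 reads in the controls and 0, 0 and 0 in the exposed larvae. Against the pooled controls, at 1.11 CPM, exposed libraries were at least 47.3-fold lower with 3 reads over the group as the floor. The gene was called (edgeR adjusted p = 0.0173). Control replicate 3 alone, at 0.274 CPM, was nearer to that floor of 0.0234 CPM. The control with 10 reads was replicate 3, whose depth was above that of replicate 2. The related ligand il17a/f2 had 55, 22 and 3 reads against 2, 0 and 0 and was not called (edgeR adjusted p = 0.0723).

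A receptor chain, a kinase and STAT3 itself fell at smaller folds. The receptor chain il17ra1a (ENSDARG00000058244) stood at 8.87 ± 2.09 CPM in controls and at 4.86 ± 0.41 CPM in exposed larvae (SD, n = 3; -0.86 ± 0.15 SE, edgeR adjusted p = 0.0266). The receptor of interleukin 23 itself, il23r, fell by 1.32 on the log2 scale, and il12b2, of the p40 subunit family that interleukins 12 and 23 share, by 2.58. Both were named after their values were seen, and il12b2 is in no list. Among the fits that left out a library, il23r was called only without control replicate 3. The related gene il12ba, with 9, 0 and 1 reads in the controls and 10, 6 and 4 in the exposed larvae, was not called (1.14, edgeR adjusted p = 0.572). STAT3 (ENSDARG00000022712), the transcription factor of the pathway, was at 82.8, 78.6 and 57.4 CPM in controls and at 39.4, 44.2 and 38.0 CPM in exposed larvae (-0.85 ± 0.13 SE, edgeR adjusted p = 0.0122). The kinase TYK2 (ENSDARG00000020326) was at 46.0, 44.3 and 34.3 CPM against 26.4, 28.3 and 27.6 CPM (-0.60 ± 0.10 SE, edgeR adjusted p = 0.0244). In il17ra1a, STAT3 and TYK2 control replicate 3 was the lowest control and still above every exposed library. The shared receptor chain il6st (-0.45, edgeR adjusted p = 0.136), JAK1 (-0.39, 0.119) and il17rc (-0.48, 0.0957) were not called, and neither was il22 (-0.30, 0.825).

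The feedback inhibitor SOCS3 (ENSDARG00000026611), a target of STAT3, gave 71.5, 79.3 and 55.2 CPM in controls and 28.3, 35.9 and 32.7 CPM in exposed larvae (-1.09 ± 0.13 SE, edgeR adjusted p = 0.00735). It was called whichever library was left out. A further gene with the symbol SOCS3 (ENSDARG00000025428), at 200, 315 and 267 CPM against 193, 183 and 127 CPM, was not called (-0.63, edgeR adjusted p = 0.148). IL10 (ENSDARG00000078147), an anti-inflammatory cytokine, had 33, 17 and 10 reads in the controls and 2, 5 and 1 in the exposed larvae (-2.76 ± 0.50 SE, edgeR adjusted p = 0.0319). These are few reads, and the groups did not overlap, as in every called gene. Of the 7 falls in the list 1, 2 or 2 were left when exposed replicate 1, 2 or 3 was taken out and 1 or 1 when control replicate 1 or 2 was, whereas 12 genes fell without control replicate 3. Over the 6 fits that leave out 1 library, the adjusted p of STAT3 ran from 0.000158 to 0.0822 and that of il17a/f1 from 0.000113 to 0.0938.

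**Figure D2:**
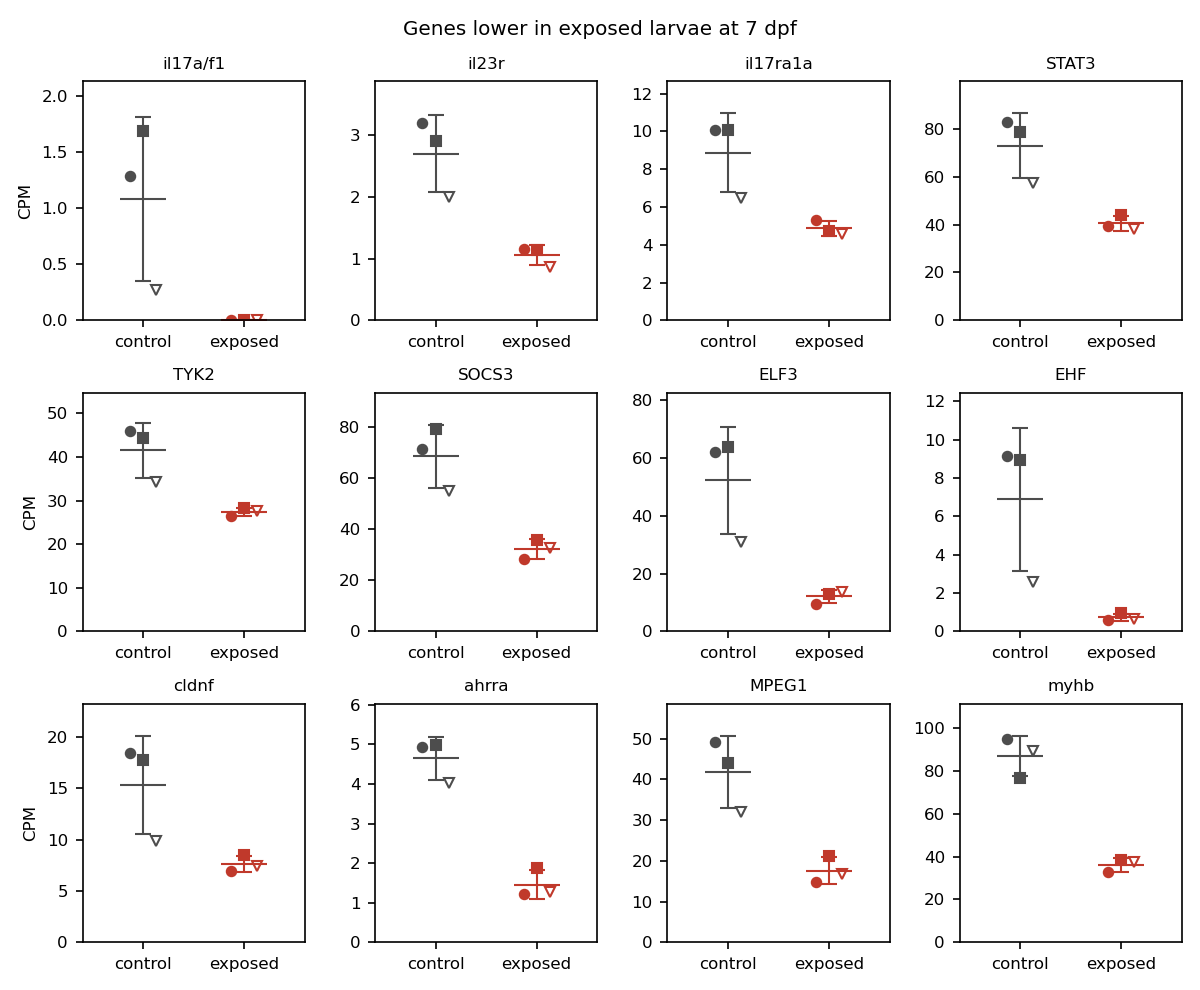
CPM of 12 genes lower in exposed larvae, with 1 point per library (filled circle, replicate 1; square, replicate 2; open triangle, replicate 3), the mean as a bar and the SD as whiskers (n = 3 per group). Every exposed library lies below every control, and the open triangle of the controls is the lowest of its group except in myhb.

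A few chemokines fell beside these cytokines. Of 59 inflammation genes tested 5 fell (8.47%) and 0 rose, with a median of -0.34 and 44 fold changes below 0. SOCS3 and IL10 are 2 of the 5, and the rest are chemokines, secreted proteins that attract leukocytes, of which 13 were tested in the list. The CXC chemokine cxcl18b (ENSDARG00000075045) was at 12, 9.35 and 5.45 CPM in controls and at 1.92, 2.91 and 2.91 CPM in exposed larvae (-1.82 ± 0.25 SE, edgeR adjusted p = 0.0111). The CC chemokine ccl34a.4 was at 4.09, 3.46 and 2.82 CPM against 1.29, 1.23 and 1.33 CPM (-1.44 ± 0.22 SE, edgeR adjusted p = 0.0122). The exposed libraries lay close together in ccl34a.4 and ran from 1.92 to 2.91 CPM in cxcl18b. In both genes the controls spread over a wider range in CPM, with replicate 3 at its lower end. Less abundant, ccl20a.3 went from 1.56 ± 0.41 to 0.397 ± 0.28 CPM (SD, n = 3; -2.23, edgeR adjusted p = 0.0163). Taking out exposed replicate 1, 2 or 3 gave 1, 2 or 4 falls in this list, and taking out control replicate 1, 2 or 3 gave 2, 1 or 17.

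Of 39 immediate early genes, among them the subunits of the transcription factor AP-1, JUNB and JUN fell (5.13%) and 0 rose, at a list median of -0.07. JUNB (ENSDARG00000074378) was at 81.0, 100.4 and 79.2 CPM in controls and at 47.1, 50.1 and 37.2 CPM in exposed larvae (-0.95 ± 0.14 SE, edgeR adjusted p = 0.0116). JUN (ENSDARG00000043531) was at 139.9, 145 and 130.4 CPM against 104, 111 and 100.8 CPM (-0.39 ± 0.07 SE, edgeR adjusted p = 0.0339). Neither gene overlapped between groups, and control replicate 3 was not far from the other controls. A further JUNB gene (ENSDARG00000104773) overlapped and was not called (-0.27, edgeR adjusted p = 0.62). With exposed replicate 1, 2 or 3 taken out 0, 1 or 1 genes fell, and with control replicate 1, 2 or 3 taken out 1, 0 or 4.

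Antigen presentation, interferon and leukocyte genes had list medians below 0, with 1 member called. Of 40 genes of major histocompatibility complex class I and its peptide supply, 33 had fold changes below 0, with a median of -0.43, and 0 were called (tapbpl, -1.33, edgeR adjusted p = 0.057; psmb12, -1.59, 0.0576). Of 47 interferon response genes 39 were below 0, with a median of -0.41, and 0 were called; at an unadjusted p under 0.05 the lists had 23 and 11 genes lower and 1 and 2 higher. DESeq2 called 9 falls in the former and 3 in the latter, and voom 6 and 1. Without control replicate 3 edgeR called 11 falls in the former and 7 falls and 1 rise in the latter, and 0 without any other library. The summed level of the interferon list was 677, 596 and 604 CPM in controls and 639, 772 and 689 CPM in exposed larvae, so that the sum did not follow the median. MPEG1 (ENSDARG00000043093), a pore protein that macrophages use against engulfed bacteria, was at 49.2, 43.9 and 32.0 CPM in controls and at 14.8, 21.2 and 16.7 CPM in exposed larvae (-1.25 ± 0.23 SE, edgeR adjusted p = 0.0458). It was the 1 called gene of 44 macrophage and neutrophil genes (2.27%), whose median was -0.31, and it was called in no fit that left out a library other than control replicate 3 (adjusted p of 0.00705 to 0.219). The summed level of that list was 2015, 1362 and 1215 CPM in controls and 1182, 1324 and 1102 CPM in exposed larvae, so that the groups overlapped. A further gene with the symbol MPEG1 (ENSDARG00000055290), at 0.567 CPM in controls and 0.487 CPM in exposed larvae, overlapped between groups. It was not called (-0.35, edgeR adjusted p = 0.81). Of the other defining macrophage markers, csf1ra (-0.04, edgeR adjusted p = 0.944), marco (-0.08, 0.956) and SPI1 (-0.35, 0.398) were not called. Of 5 tested genes with the symbol MFAP4, also a macrophage marker in zebrafish, 4 had fold changes below 0 (-1.59, -0.71, -0.53 and -0.44) and 1 above (0.21), and 0 were called. None of these markers was at 0 in either group. The lysosomal protein cd68, also known from macrophages, fell by 0.72 and was named after its values were seen. What part of these falls goes with the number of macrophages was not tested.

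The largest falls among well expressed genes included epithelial regulators. ELF3 (ENSDARG00000077982), a transcription factor of the ETS family that is known from barrier epithelia in mammals, was at 61.9, 63.8 and 31.0 CPM in controls and at 9.58, 12.9 and 13.7 CPM in exposed larvae (-2.12 ± 0.26 SE, edgeR adjusted p = 0.0116). The related factor EHF (ENSDARG00000052115) was at 9.16, 8.93 and 2.60 CPM against 0.616, 0.952 and 0.665 CPM (-3.18 ± 0.47 SE, edgeR adjusted p = 0.0241). In both genes control replicate 3 lay between the other controls and the exposed libraries, and without it the fold changes were -2.39 for ELF3 and -3.56 for EHF. The adjusted p over the 6 fits that leave out a library ran from 4.44e-06 to 0.0747 for ELF3 and from 3.65e-06 to 0.143 for EHF. With cldnf they are the calls of a list of 52 genes of mucosal and barrier epithelia, of which 3 fell (5.77%) and 0 rose at a median of -0.14. When exposed replicate 1, 2 or 3 was out the falls numbered 0, 0 or 1, and when control replicate 1, 2 or 3 was out 0, 1 or 10. The epithelial factors GRHL1 (-0.73, edgeR adjusted p = 0.0752) and grhl3 (-1.24, 0.131) and the secretory protein AGR2 (-1.50, 0.133) were not called.

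Claudins, which seal the junctions between epithelial cells, gave 3 falls among 38 genes tested (7.89%) and 0 rises, at a median of -0.10. The member cldnf (ENSDARG00000043133) was at 18.4, 17.7 and 9.86 CPM in controls and at 6.93, 8.5 and 7.46 CPM in exposed larvae (-1.01 ± 0.19 SE, edgeR adjusted p = 0.0402). Of the others, cldn30 went from 10.5 ± 2.41 to 5.52 ± 0.53 CPM (SD, n = 3; -0.93, edgeR adjusted p = 0.0245) and cldn8.2 from 32.5 ± 8.99 to 18.1 ± 1.96 CPM (-0.84, 0.0456). All 3 were called without control replicate 3, when 7 claudins fell, and 0 were called without any other library. The tight junction protein MARVELD2 fell by 0.48, the gap junction connexin gjb9a by 1.79 and the growth factor fgf7 by 0.93. Of 22 genes for keratins, the filament proteins of epidermal cells, 17 had fold changes above 0, with a median of 0.22, and edgeR called 0 (6 higher and 3 lower at an unadjusted p under 0.05; DESeq2 called 1 rise and 3 falls, voom 1 and 1). Without control replicate 3 edgeR called 5 keratins higher and 1 lower, and 0 without any other library. Their summed level was 10036, 10254 and 15309.6 CPM in controls and 16958, 17036 and 14332 CPM in exposed larvae, so that control replicate 3 lay among the exposed libraries.

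A fast muscle myosin fell. The heavy chain myhb (ENSDARG00000001993) was at 94.7, 76.5 and 89.2 CPM in controls and at 32.6, 38.5 and 37.2 CPM in exposed larvae (-1.27 ± 0.15 SE, edgeR adjusted p = 0.00595). It was called whichever library was left out, and control replicate 3 lay between the other controls. A further fast myosin heavy chain, myhz1.1l, fell by 0.89 and was named after its values were seen. Of 65 fast muscle genes 53 had fold changes above 0, with a median of 0.13, and myhb was the 1 called member (1.54%). Myosin heavy chain genes are close copies of each other, and reads that map to several places were not counted, so the level of a single copy is uncertain.

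Several single genes of small-molecule metabolism fell. The repressor of the aryl hydrocarbon receptor, ahrra (ENSDARG00000099702), which that receptor induces as its own brake, was at 4.92, 4.98 and 4.02 CPM in controls and at 1.21, 1.87 and 1.28 CPM in exposed larvae (-1.65 ± 0.18 SE, edgeR adjusted p = 0.00509). It was called whichever library was left out. Of the 57 genes of the receptor's pathway and of xenobiotic metabolism it was the 1 call (1.75%), at a list median of 0.01. At an unadjusted p under 0.05 the list had 4 genes higher and 4 lower. The receptor gene ahr2 (-0.24, edgeR adjusted p = 0.124) and the monooxygenase cyp1c2 (-0.48, 0.0524), a known target, were not called. The sulfotransferase sult5a1 (ENSDARG00000007769), of a family that conjugates sulfate to small molecules, was at 16.8, 15.6 and 7.06 CPM against 2.44, 3.46 and 2.71 CPM (-2.19 ± 0.32 SE, edgeR adjusted p = 0.0227). It was called in no fit that left out a library other than control replicate 3 (adjusted p of 4.19e-05 to 0.136), and the other 17 sulfotransferases tested were not called. The fatty acid synthase gene fasn2 (ENSDARG00000096762) was at 11.3, 13.7 and 7.91 CPM against 2.15, 3.44 and 3.37 CPM (-1.89 ± 0.25 SE, edgeR adjusted p = 0.00871), as the 1 call among 60 genes of cholesterol and fatty acid synthesis (1.67%).

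CYP26B1 (ENSDARG00000077121), an enzyme that breaks down retinoic acid, was at 55.4, 50.8 and 51.7 CPM in controls and at 39.9, 37.9 and 38.8 CPM in exposed larvae (-0.44 ± 0.08 SE, edgeR adjusted p = 0.0241). Its groups were tight and did not overlap. It was the 1 call among 45 genes of retinoic acid metabolism and signalling (2.22%), and it was called in no fit that left out a library other than control replicate 3 (adjusted p of 0.0106 to 0.152). The lipase mgll, which splits monoacylglycerols, fell by 0.69, and the oxoglutarate receptor OXGR1 by 2.0. UNC93A, of 69 intestine genes the 1 that was called (1.45%), went from 6.22 ± 1.72 to 3.00 ± 0.41 CPM (SD, n = 3; -1.02, edgeR adjusted p = 0.0326). The patched-domain gene PTCHD3 (ENSDARG00000068874) was at 3.63, 4.75 and 2.05 CPM against 0.596, 0.670 and 0.716 CPM (-2.41 ± 0.31 SE, edgeR adjusted p = 0.00766) and was called whichever library was left out. The ARID-domain gene arid6 fell by 0.99.

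Genes of calcium and potassium channels of ion-transporting cells rose. TRPV6 (ENSDARG00000014496), the channel through which ionocytes of the zebrafish skin take up calcium, was at 20.6, 21.1 and 17.2 CPM in controls and at 55.9, 37.2 and 41.6 CPM in exposed larvae (1.19 ± 0.15 SE, edgeR adjusted p = 0.00779). The lowest exposed library was well above the highest control, and the gene was called whichever library was left out. Of 73 ionocyte genes 6 rose (8.22%, where 0.178% of all genes rose) and 0 fell, at a median of 0.08. The ionocyte factors foxi3a (0.22, edgeR adjusted p = 0.764) and GCM2 (-0.04, 0.962) were not called. The summed level of the list was 5570.2, 5867 and 6105 CPM in controls and 6235, 6662 and 6408 CPM in exposed larvae. What part of the rises goes with the number of ionocytes was not tested.

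The other 5 of these rises carry the symbol KCNJ1, which stands for an inwardly rectifying potassium channel of apical membranes in transporting epithelia. The gene ENSDARG00000088484 was at 11.6, 14.8 and 13.3 CPM in controls and at 25.6, 25.7 and 25 CPM in exposed larvae (0.95 ± 0.13 SE, edgeR adjusted p = 0.00876). The gene ENSDARG00000090866 was at 6.81, 6.56 and 6.54 CPM against 17.8, 14.7 and 13 CPM (1.2 ± 0.22 SE, edgeR adjusted p = 0.0427). In both the exposed libraries lay far above the controls. The controls differed little among themselves in ENSDARG00000090866 and ran from 11.6 to 14.8 CPM in ENSDARG00000088484. The remaining 3 rose by 1.03 (ENSDARG00000090635), 0.92 (ENSDARG00000086248) and 0.74 (ENSDARG00000089060), while ENSDARG00000091232 (-0.55, edgeR adjusted p = 0.513) and ENSDARG00000002666 (-0.06, 0.961) were not called. These copies are similar and reads that map to several places were not counted, so reads may be split unevenly between them and they are not 5 independent observations. Of 25 inward rectifier genes these 5 were the calls (20%), at a median of -0.05. Rises in the ionocyte list numbered 3, 2 or 2 with exposed replicate 1, 2 or 3 out, and 1, 2 or 9 with control replicate 1, 2 or 3 out. The plasma membrane calcium pump atp2b1b (0.51) and the potassium chloride cotransporter SLC12A7 (0.37) rose as well.

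**Figure D3:**
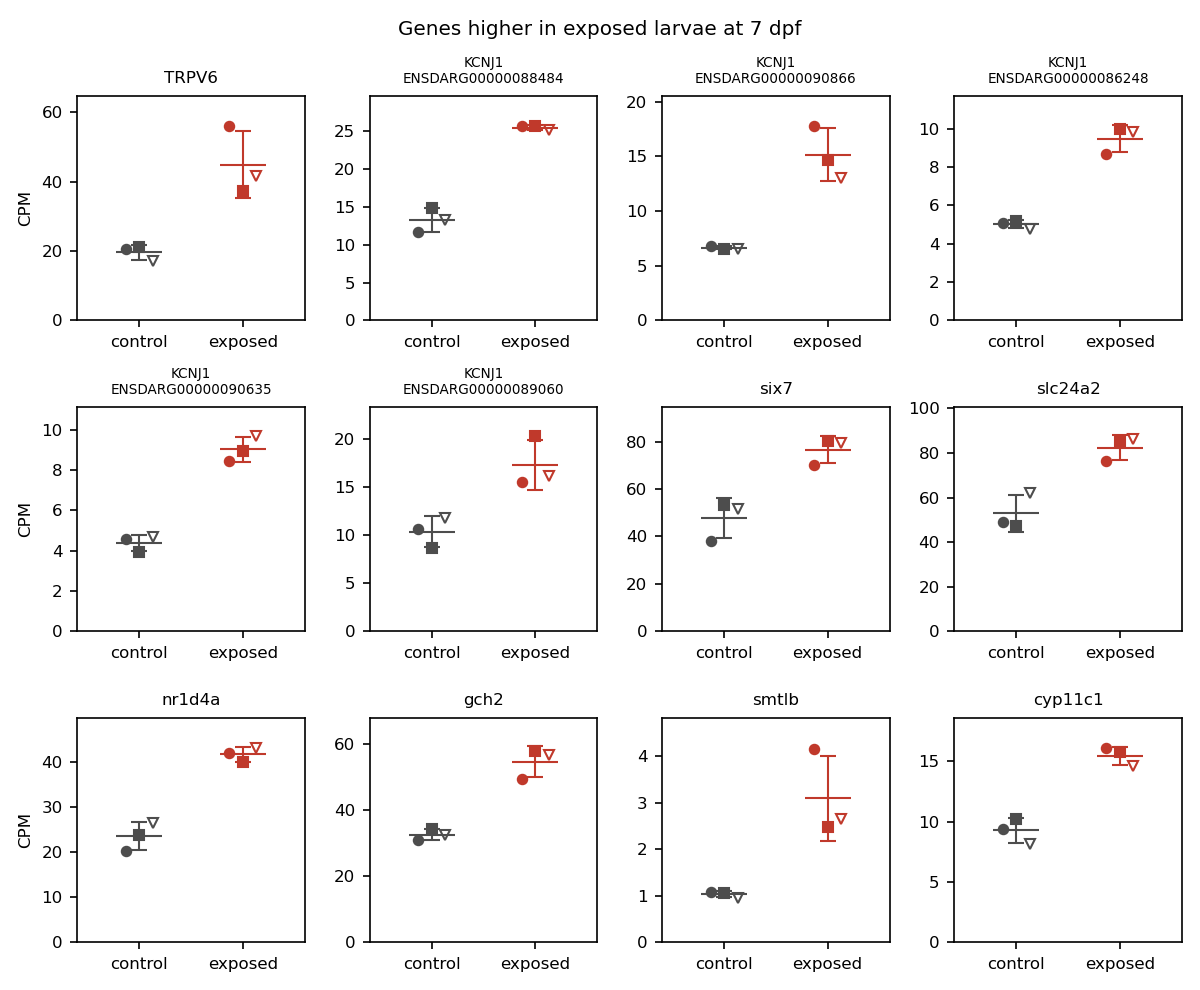
CPM of 12 genes higher in exposed larvae, with 1 point per library (filled circle, replicate 1; square, replicate 2; open triangle, replicate 3), the mean as a bar and the SD as whiskers (n = 3 per group). Every exposed library lies above every control, and the 5 KCNJ1 genes are marked by their identifiers.

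A few photoreceptor genes rose by small folds. Of 91 phototransduction and photoreceptor genes 3 rose (3.3%) and 0 fell, with 80 fold changes above 0 and a median of 0.22. The factor six7 (ENSDARG00000070107), which in zebrafish drives opsin genes of green and blue cones, was at 47.7 ± 8.43 CPM in controls and at 76.6 ± 5.72 CPM in exposed larvae (SD, n = 3; 0.69 ± 0.12 SE, edgeR adjusted p = 0.0303). The cone exchanger slc24a2 (ENSDARG00000042988), which removes calcium from the outer segment, was at 49.2, 47.2 and 62.3 CPM against 76.3, 84.8 and 86.3 CPM (0.64 ± 0.11 SE, edgeR adjusted p = 0.0242). PDC, or phosducin, which binds the beta and gamma subunits of transducin, went from 117 ± 5.54 to 152 ± 8.92 CPM (SD, n = 3; 0.38, edgeR adjusted p = 0.0269). The groups of these genes did not overlap, and control replicate 3 was the control nearest to the exposed libraries in slc24a2. The guanylate cyclase activator guca1aa also rose, by 0.65. The cone opsin opn1lw2 (0.40, edgeR adjusted p = 0.416) and the cone transducin GNAT2 (0.30, 0.206) were not called. The count of 3 was 9 without control replicate 3 and 0 without any other library.

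A clock repressor and 2 genes of the myelin and glia list rose too. The nuclear receptor nr1d4a (ENSDARG00000031161), of the Rev-erb family that represses clock genes, was at 20.3, 23.8 and 26.6 CPM in controls and at 42.0, 39.9 and 43.2 CPM in exposed larvae (0.83 ± 0.10 SE, edgeR adjusted p = 0.00595). It was called whichever library was left out, as was the kinase nim1kb of the AMPK-related family (0.79, from 12.3 ± 0.48 to 21.2 ± 1.17 CPM; SD, n = 3). Of 52 clock genes nr1d4a was the 1 call (1.92%), with 37 fold changes above 0 and a median of 0.10. The hour of sampling is not given in the labels used here. Glutamate transporter genes SLC1A2 (ENSDARG00000052138; 0.54 ± 0.08 SE, edgeR adjusted p = 0.013) and slc1a8b (0.79 ± 0.12 SE, 0.0148) and the fatty acid binding protein of radial glia, FABP7 (0.37 ± 0.08 SE, 0.0482), rose. SLC1A2 was at 129.9, 141 and 143 CPM in controls and at 188, 213 and 202 CPM in exposed larvae, without overlap. Of 39 myelin and glia genes these 2, SLC1A2 and FABP7, were the calls (5.13%), at a median of 0.06; both remained without control replicate 3, 1 was called without exposed replicate 1 and 0 without any other library. Of 76 neuron and synapse genes 0 were called, at a median of -0.02.

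Among hormones, 2 pituitary genes moved in opposite directions. The pituitary hormone somatolactin beta, smtlb (ENSDARG00000017251), was at 1.08, 1.07 and 0.958 CPM in controls and at 4.16, 2.49 and 2.66 CPM in exposed larvae (1.59 ± 0.22 SE, edgeR adjusted p = 0.00952). The beta subunit of luteinizing hormone, lhb (ENSDARG00000099363), had 47, 22 and 14 reads in the controls and 3, 5 and 1 in the exposed larvae (-3.05 ± 0.41 SE, edgeR adjusted p = 0.00871). Both were called in 4 of the 6 fits that leave out a library. The other 50 genes of the pituitary and appetite list were not called. The steroid enzyme cyp11c1 (ENSDARG00000042014), which makes cortisol in the interrenal gland, was at 9.27 ± 1.04 CPM in controls and 15.5 ± 0.75 CPM in exposed larvae (SD, n = 3; 0.74 ± 0.14 SE, edgeR adjusted p = 0.0353). It was the 1 call among 33 genes of stress steroids (3.03%), whose median was 0.07, and it was called in no fit that left out a library other than control replicate 3 (adjusted p of 0.0322 to 0.154).

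A few pigment, matrix and iron genes were called. The enzyme gch2 (ENSDARG00000099101), which starts pteridine synthesis in yellow pigment cells, was at 31.1, 34.3 and 32.6 CPM in controls and at 49.4, 57.9 and 56.9 CPM in exposed larvae (0.75 ± 0.10 SE, edgeR adjusted p = 0.00871). It was called in every fit that left out a library except the one without control replicate 1 (adjusted p of 0.00328 to 0.0502). In the same list of 53 pigment genes, with 39 fold changes above 0 and a median of 0.15, the LIM-domain protein FHL2 fell (-0.52, edgeR adjusted p = 0.0402), so that the list gave 1 rise and 1 fall. The collagen of epidermal anchoring fibrils, col7a1, went from 19.9 ± 2.14 to 32.6 ± 2.09 CPM (SD, n = 3; 0.71, edgeR adjusted p = 0.0266), the 1 call of 111 cartilage, bone and collagen genes (0.901%). In that list 7 genes rose and 1 fell without control replicate 3 and 0 were called without any other library, while DESeq2 called 9 rises. The ferritin heavy chain gene fthl29 was at 4.84, 3.56 and 5.01 CPM in controls and at 16.6, 9.88 and 8.18 CPM in exposed larvae (1.38 ± 0.23 SE, edgeR adjusted p = 0.0241). The exposed libraries of fthl29 spread over a range wider than their distance from the controls. The gene was called in 3 of the 6 fits that left out a library, and it was the 1 call of 7 ferritin genes tested (14.3%). The summed level of the ferritin list was 1306, 1157 and 1086 CPM in controls and 1108, 1155 and 1155 CPM in exposed larvae, so that the groups overlapped. The scramblase family gene xkr8.2, listed with apoptosis genes, rose from 6.41 ± 0.71 to 12.4 ± 1.99 CPM (SD, n = 3; 0.96, edgeR adjusted p = 0.00952), as the 1 call of 56 (1.79%).

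Genes that answer DNA damage were not called. The checkpoint inhibitor cdkn1a was at 64.5, 79.3 and 76.1 CPM in controls and at 102, 95.0 and 80.3 CPM in exposed larvae, without overlap but with the lowest exposed library close to the controls (0.34 ± 0.13 SE, edgeR adjusted p = 0.321). The ubiquitin ligase mdm2 (0.11 ± 0.10 SE, 0.738) and the cyclin CCNG1 (0.07 ± 0.10 SE, 0.868) overlapped between groups. GADD45A (ENSDARG00000104571), named after its values were seen, was at 25.1, 30.7 and 25.1 CPM against 36.7, 41.9 and 31.5 CPM. Its groups did not overlap, and it was not called (0.45 ± 0.15 SE, edgeR adjusted p = 0.214). A further gene with that symbol (ENSDARG00000043581) overlapped and was not called (0.03, edgeR adjusted p = 0.962). Of 44 DNA damage response genes 0 were called, at a median of 0.03, and of 86 DNA repair genes 0, at a median of 0.00. At an unadjusted p under 0.05 the former had 3 genes higher and 5 lower and the latter 0 in either direction. DESeq2 and voom called 0 genes in both lists, and edgeR without control replicate 3 called 3 falls in the former.

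In all, 23 of the 47 lists had a called member and 24 had none. Among those with none, proteasome genes had 51 of 52 fold changes below 0 (median -0.15), ribosome biogenesis 88 of 97 (-0.15) and heat shock and unfolded protein genes 56 of 65 (-0.22). Mitosis genes had 54 of 58 above 0 (0.24), DNA replication genes 46 of 63 (0.10), nuclear genes of oxidative phosphorylation 79 of 95 (0.08) and pancreas enzymes 29 of 35 (0.20). Of all 23075 genes tested 10936 were above 0 and 12139 below 0. Members of a list move together, so these shares are descriptions. At an unadjusted p under 0.05, 1679 of the 23075 genes were lower and 1065 higher. By that measure 12 of 52 proteasome, 16 of 97 ribosome biogenesis and 22 of 65 heat shock genes were lower. The mitosis list had 6 of 58 genes higher and the DNA replication list 3 of 63. DESeq2 called 3, 1 and 7 of the former lists lower and 0 and 1 of the latter higher. Without control replicate 3 the medians were 0.08 for mitosis and -0.01 for DNA replication, and 16 heat shock genes fell. Antioxidant (-0.02), hypoxia (0.00), lens (0.09), liver (0.08) and mitochondrial genome (-0.02) lists had no call either.

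**Figure D4:**
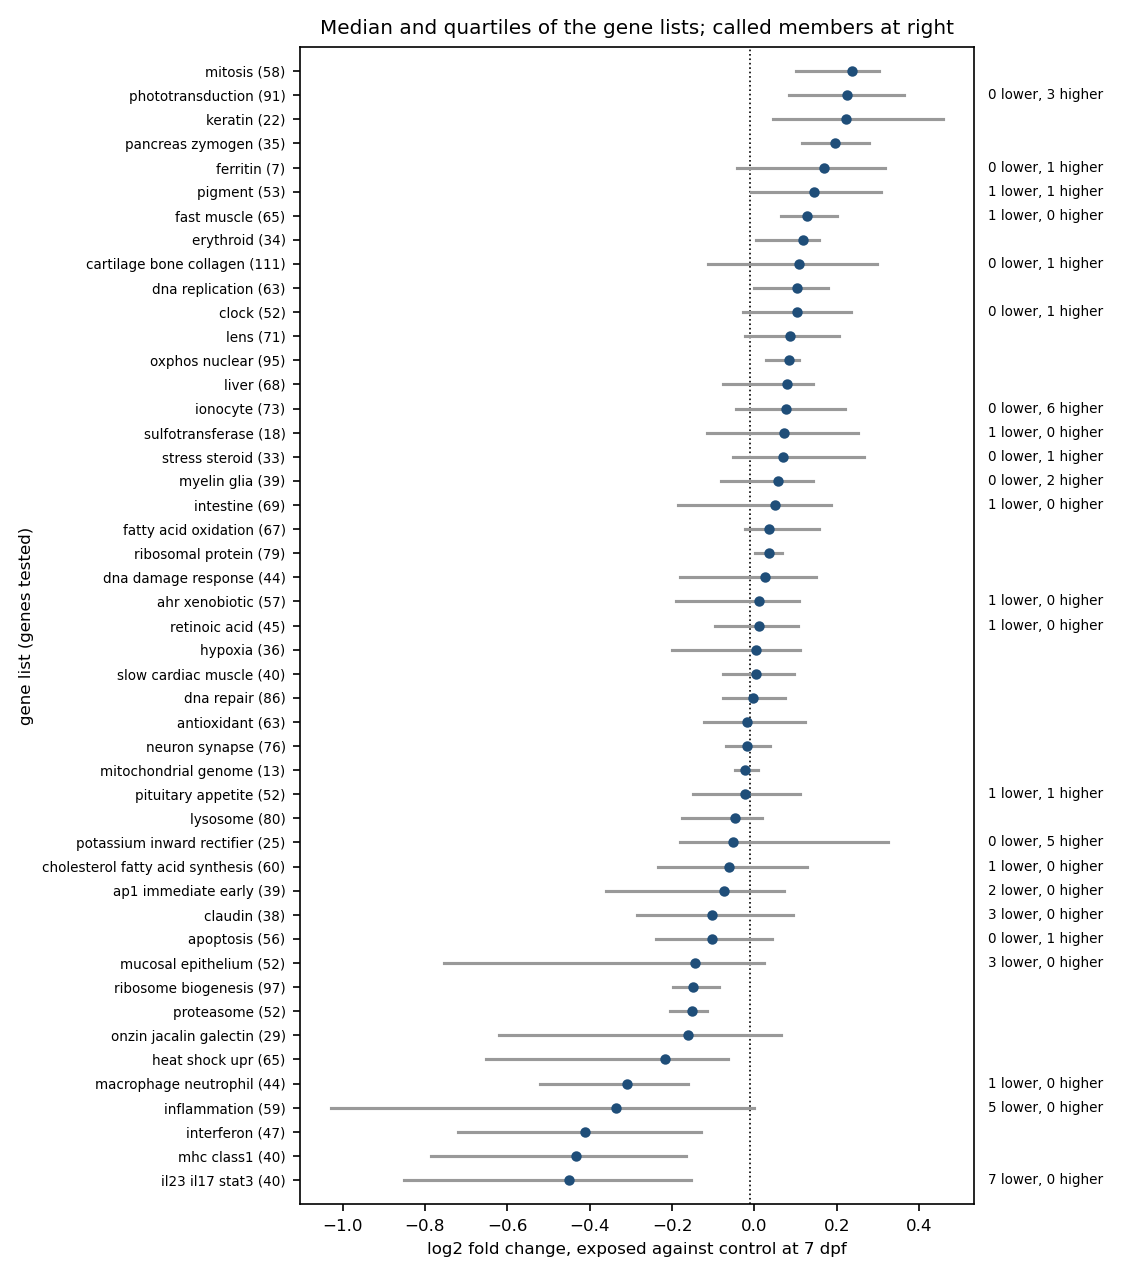
For each of the 47 gene lists, the point is the median log2 fold change of its tested members at 7 dpf and the line runs from the lower to the upper quartile; the dotted line is the median of all genes tested (-0.01), and called members are counted at the right. The interleukin 23, interleukin 17 and STAT3 list has a median of -0.45 and 7 falls, and the ionocyte list 6 rises. Without control replicate 3 the interferon list has the lowest median (-0.65) and the inflammation list the most falls, 17.

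Of the 119 called genes, 44 are in a list and 75 in none. In all 76 carry a gene symbol, 33 a clone or locus name and 10 no symbol. The smallest p of all belonged to a clone-named gene, si:ch73-335l21.4 (ENSDARG00000091234), at 66.0, 74.2 and 58.8 CPM in controls and 26.6, 34.1 and 26.6 CPM in exposed larvae (-1.19 ± 0.12 SE, edgeR adjusted p = 0.00339). Another clone-named gene (ENSDARG00000097714) was at 7.72, 8.38 and 5.39 CPM against 2.65, 3.1 and 2.71 CPM (-1.34 ± 0.17 SE, edgeR adjusted p = 0.00779). Both were called whichever library was left out, and no role is given here for either. With these, the genes called in all 6 such fits were ahrra, nr1d4a, nim1kb, myhb, SOCS3, PTCHD3 and TRPV6, 9 in all. Further called genes with a symbol rose by 1.79 (B3GNT3, a glycosyltransferase), 0.69 (itga6b, an integrin), 0.59 (mef2ab, a transcription factor of muscle) and 0.52 (ULK2, an autophagy kinase). Further falls were those of fut9b.4, a fucosyltransferase (-1.43), c1galt1a, which extends mucin-type glycans (-0.92), and the adaptor STAP2 (-0.86).

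Larvae at 10 dpf, which are other samples with controls of their own, showed most of these changes in the same direction. Of the 41 rises 37 were above 0 at 10 dpf and 23 were called there as rises (56.1%, where 4.77% of all genes were called higher and 11.8% in all), and 0 were called as falls. Of the 78 falls 73 were below 0 at 10 dpf and 55 were called there as falls (70.5%, where 7.02% of all genes were called lower), while 3 were called as rises. The median of the rises was 0.68 at 7 dpf and 0.36 at 10 dpf, and that of the falls -1.25 and -0.91. The genes were chosen at 7 dpf, so these medians are no test of a difference between the ages. The same fit and estimate of the spread served both ages, so their calls are not independent and the shares are no test. How many of all genes kept their sign between the ages was not counted. At 10 dpf ELF3 (-1.64, edgeR adjusted p = 0.00417), EHF (-2.77, 0.00356), STAT3 (-0.62, 0.00805), TYK2 (-0.49, 0.00974), il17ra1a (-1.05, 0.00135) and cldnf (-0.93, 0.00871) were lower again. SOCS3 (-0.22, edgeR adjusted p = 0.291), TRPV6 (0.48, 0.0657) and ahrra (-0.41, 0.122) were not called there, and for none of these 3 was the difference between the ages called (adjusted p of 0.0653 to 0.25). Of the 9 genes called in all 6 fits that left out a library at 7 dpf, most were not called in the same direction at 10 dpf. Those called again were myhb (-0.73, edgeR adjusted p = 0.00821) and ENSDARG00000097714 (-0.70, 0.015). Besides genes named above, nim1kb (0.25, 0.0967) and PTCHD3 (-0.70, 0.13) were not called there. At 10 dpf, too, exposed larvae stood inside the glove box.

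The test of the difference between the effects at the ages called 62 of all genes (0.269%) and 6 of the 119 genes. CYP26B1, JUN and si:ch73-335l21.4 were lower at 7 dpf and higher at 10 dpf (0.40, 0.25 and 0.42), each called at both ages. JUNB was lower at 7 dpf and not called at 10 dpf (0.14, edgeR adjusted p = 0.535). The clock repressor nr1d4a was higher at 7 dpf and stood at 11.9 CPM in controls and 12.1 CPM in exposed larvae at 10 dpf (0.02, edgeR adjusted p = 0.936).

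**Figure D5:**
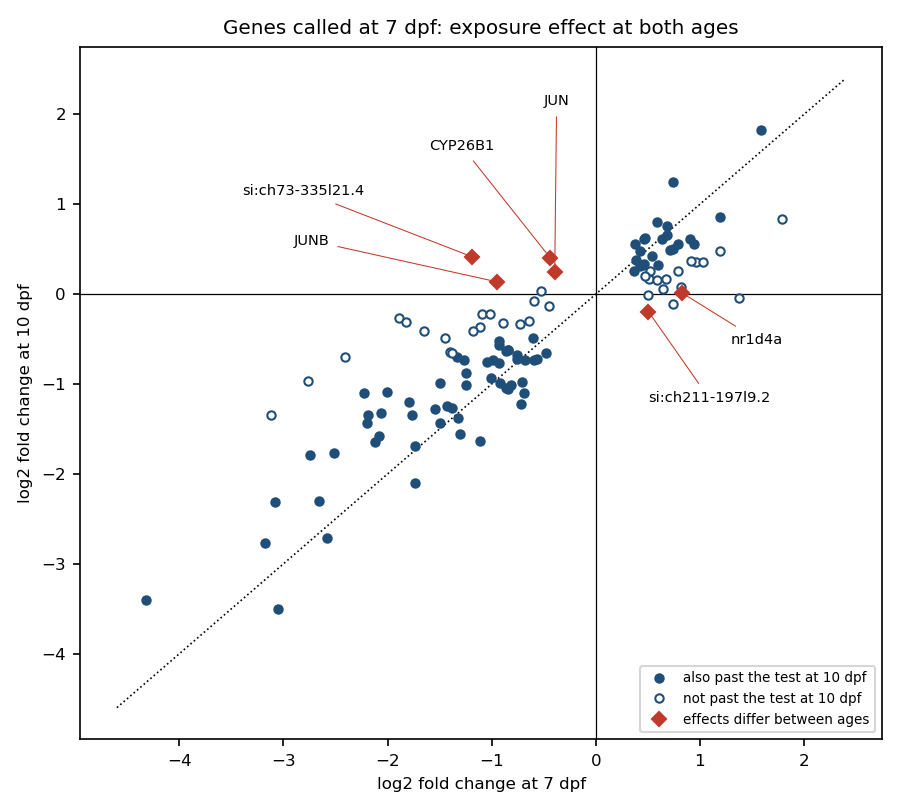
Each point is 1 of 118 genes called at 7 dpf, with its log2 fold change at 7 dpf on the x axis and at 10 dpf on the y axis; il17a/f1 is left out because it had no read in exposed larvae. Filled points are also called at 10 dpf, open points are not, diamonds mark the 6 genes whose effects differ between ages, and the dotted line marks equal effects.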

How the data were processed

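The deposited files, 1 per library, hold raw counts of reads per gene. STAR and build GRCz11 are named in the submitters' processing notes; neither STAR's version nor the annotation release is given in the sources used here. Per the labels, total RNA of entire larvae was extracted with TRIzol without a DNase step, and libraries were stranded mRNA libraries read from both ends. The counts of the strand opposite to read 1 were used, without the lines on reads that fell in no gene. At both ages 65.5 to 68.4% of reads were on genes and 14.4 to 14.8% mapped to several places and were not counted, so the level of near-identical copies is uncertain. Symbols came from a table of gene IDs that names 28988 of 32057 genes, some in human style and shared by paralogs. No gene position was used.

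Genes were kept with filterByExpr (minimum count 10, minimum total 15), scaled with TMM and tested with edgeR's quasi-likelihood F test in its robust form. All 12 libraries entered 1 fit with a mean for each of the 4 groups, so that the groups share an estimate of the spread (8 residual degrees of freedom). P-values are two-sided and were adjusted by the Benjamini-Hochberg method over 23075 genes, with a threshold of 0.05. CPM used TMM-scaled library sizes. The SE of a log2 fold change is its size divided by the square root of F. P-values set the difference between exposed and control larvae against this shared spread between libraries within groups, those at 10 dpf included. The 47 lists hold 2217 symbols, among them patterns that take in all genes of a family by name. Symbols were matched by name, by such a pattern or after dropping or adding a trailing letter or copy number, and 153 matched no gene. The lists are given by counts and medians without a test.

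The comparison, the lists and the rule for named genes were chosen with earlier results of these data known. Named were called genes that kept their call without any 1 library, the 12 largest rises and 12 largest falls whose libraries did not overlap with at least 5 CPM in the higher group, the 10 smallest p, and up to 6 called members of each list by p. They needed a gene symbol, except 2 clone-named genes with the smallest p. The genes cdkn1a, mdm2 and CCNG1 were added, and other called genes are given with their log2 fold change alone. Some marker genes are not reported here. Alternatives were RLE or upper quartile scaling, no filter, a filter of 1 CPM, a replicate block, unstranded counts, glmTreat with a fold of 1.5, the libraries at 7 dpf alone, voom with sample weights, DESeq2 and leaving out each library. The scripts were tested on simulated data. Tools were edgeR 4.0.16, DESeq2 1.42.0 and limma 3.58.1 in R 4.3.3, with figures from matplotlib 3.10.9.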

Additional observations from a re-analysis of the deposited data

Results flagged for a closer look

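The exposure effect of 6 of the called genes differed between 7 and 10 dpf by the test of the difference itself (edgeR, adjusted over all genes). On the log2 scale, 10 dpf minus 7 dpf, the difference was 1.6 for si:ch73-335l21.4 (adjusted p = 0.00297), 0.84 for CYP26B1 (0.00878), 0.64 for JUN (0.0284) and 1.09 for JUNB (0.0411), all lower in exposed larvae at 7 dpf. It was -0.81 for nr1d4a (adjusted p = 0.0355) and -0.70 for si:ch211-197l9.2, which were higher in exposed larvae at 7 dpf. In all 6 the exposed libraries did not overlap the controls at 7 dpf, as in all 119 called genes and in 16.7% of all genes tested. Control levels also changed with age: nr1d4a went from 23.6 to 11.9 CPM and si:ch73-335l21.4 from 66.3 to 30.9 CPM between the controls of both ages.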

How the results depend on the processing

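The count of 119 called genes (41 higher, 78 lower) was 111 to 128 under RLE and upper quartile scaling, without a filter, with a filter of 1 CPM and with unstranded counts, and 110 to 119 of the 119 genes were shared. It was 66 (26 and 40; 47 of the 119 shared, and 20 of the 49 named genes lost) with the libraries at 7 dpf alone, 447 (171 and 276) with voom, 591 (207 and 384) with DESeq2 and 0 (0 and 0) against a null fold of 1.5. All 119 were among the calls of voom and of DESeq2. Calls shared in direction with 10 dpf, 78, were 252 with voom, 347 with DESeq2 and 0 against that fold, and genes differing between ages, 62, were 152, 280 and 2. Leaving out each library gave 12 to 831 called genes (3 to 182 higher, 9 to 649 lower), 3 to 546 calls shared with 10 dpf and 10 to 63 differences between ages; the cause was not tested.

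Replicate numbers come from the labels. Deviations from the group mean at 7 dpf were correlated between exposed and control libraries. With the same number the correlations were -0.158, 0.065 and 0.0429, and with unlike numbers they ran from -0.186 to 0.142. Values over so few libraries cannot tell whether those with the same number share an origin. With the replicate block 62 genes were called (20 higher, 42 lower), 58 of them among the 119, with 37 shared with 10 dpf and 22 differing between ages. No named gene that was called changed the sign of its fold change, but without exposed replicate 1 rises (13) outnumbered falls (9), and without control replicate 3 the medians of 7 lists of size up to 0.10 changed sign. Without control replicate 3 the fold changes of 38 of the 48 named genes with reads in exposed larvae were larger in size, by up to 0.38 on the log2 scale. Low levels limit what can be seen of il17a/f1, IL10 and lhb, which rest on at most 88 reads in a library. Likewise, B3GNT3 rests on at most 70 reads in a library, OXGR1 on at most 54 and il12b2 on at most 92.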
